A study of Glycine soja with 14 samples.

Results

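The comparison described here sets roots that had spent 3 h in 50 mmol/L NaHCO3 against roots that had spent 1 h in it, both of wild soybean under alkaline stress. Its members were the 2 arrays labelled NaHCO3 3 h and the 2 labelled NaHCO3 1 h, 4 of the 14 arrays of the series, and the 2 arrays of unstressed roots at 0 h took no part in it. All arrays carried RNA from the last 3 cm of roots of the Glycine soja line G07256, each from a pool of 3 plants. The 21-day-old seedlings grew in diluted Hoagland's solution, and both groups compared were moved into the same solution with 50 mmol/L NaHCO3 at pH 8.5. The groups therefore share the line, the age, the tissue and the stress, and differ in 2 h of exposure. The age is that of the labels, which differ from the study's methods on the age and on the light period. No unstressed roots were collected at 1 h or at 3 h, so longer stress and a later time of day cannot be told apart. Soybean probe sets of the Affymetrix Soybean Genome Array were compared as log2 of the deposited intensity, with values under 1 raised to 1, and values below are on this log2 scale unless a fold is given.

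NaHCO3 exposes a root to sodium ions, to a high external pH and to bicarbonate at once, which disturbs proton gradients at the plasma membrane and the uptake of nitrate and metals. Jasmonates are hormones made from linolenic acid of plastid membranes by lipoxygenase, allene oxide synthase, allene oxide cyclase and 12-oxophytodienoate reductase. They act through the receptor COI1, which removes the repressors of the ZIM motif (JAZ) family, and legume roots are known for isoflavonoids, made from phenylalanine through chalcone synthase and isoflavone synthase. Nitrate is reduced in roots by nitrate reductase and then nitrite reductase. The second enzyme takes electrons from ferredoxin, with NADPH from the plastid oxidative pentose phosphate pathway.

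Of 28440 soybean probe sets tested, 1391 (4.89%) were called higher and 2901 (10.2%) lower at 3 h than at 1 h, 15.1% in all. Of these calls 3362 were on probe sets with no gene name here. A probe set was called when its p in a limma fit over the 12 stress arrays was under 0.05 and stayed under 0.15 after Benjamini-Hochberg adjustment. The p-values measure the spread between 2 pools per time. Changes of over 2-fold were called for 608 higher and 803 lower probe sets. The median of all tested probe sets was -0.12. When probe sets were ordered by level into 10 bins, the median was -0.17 in bins 3 to 5 and 0.00 in the brightest bin, where 6.75% were higher and 3.23% lower. After quantile normalization (median -0.05) 1560 were higher and 1720 lower, with lower calls 52.4% of all calls in place of 67.6%, and after centring each array on its median 1853 were higher and 1571 lower (45.9% lower calls). Called in the same direction on all 3 scales were 1256 probe sets (4.42%) higher and 1419 (4.99%) lower. The direction of the excess therefore depended on the scaling, whereas the genes named as the 12 largest rises and the 12 largest falls were called on all 3 scales. Below, a named call lost under either scaling is said to be so.

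The calls leaned on each of the 4 arrays. Leaving out 3 h replicate 1 or 2 brought the total of 4292 calls to 894 or 566, and leaving out 1 h replicate 1 or 2 brought it to 741 or 1849. It became 2507 without either 6 h array, which take part through the shared spread. Of the 12 largest rises 9 were called without any 1 of the 4 arrays, and of the 12 largest falls 4 were. In all 24, both values at 3 h lay beyond both values at 1 h. This is no independent support, since the 24 were chosen as the largest called differences of the same arrays. Of the 258 called probe sets of the genes described here, 95 and 78 kept their call without 3 h replicate 1 and replicate 2, and 92 and 130 without those of 1 h. Among the rises, MYB122, the ZIM motif gene, the E-class P450, FAD7-2, AOS1 and F3H on their strongest probe sets, 12-oxophytodienoate reductase, the MKK2-like gene, MPK4B, 4CL3, TT7, the laccases and heat shock factor B3 passed whichever of the 4 arrays was left out. Among the falls the bright probe sets of NIR, AMT1.3, the bHLH gene, MYB177, MYB173, BZIP36, ZFP1, GASA33, plastid glucose-6-phosphate dehydrogenase and the H+-ATPase did. INR2, INR1, NRT2, ferredoxin I, COI1, MYB149, PG7, CHLH, CHS1, CHI1B1, MYB29, MYB83 and GSTU41 did not pass without at least 1 of the 4.

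The labelled tissue was checked with marker genes. Of the 17 probe sets of photosynthesis genes, 14 lay above background (a log2 value of 3.94), and their summed intensity, as log2, was 12.26 and 12.82 at 3 h, against 12.69 and 12.81 at 1 h. The 2 root markers named by symbol were isoflavone synthase genes, which roots express and which also belong to the isoflavonoid genes described below. They were bright (IFS2 at 12.46 and 12.44 at 3 h, against 11.66 and 11.17 at 1 h). By description the list of root markers took in scarecrow-like factor genes, which are not the root gene SCARECROW itself. Of these SCL6 fell by 0.89 and SCL1 rose by 0.82, and neither is read here as a root marker. Genes named for nodules, the nitrogen-fixing organs of legume roots, were present too and varied between pools. The median over 14 such genes was 9.44 and 6.53 at 3 h, against 8.02 and 4.51 at 1 h, so the arrays of 1 time differed more than the times did. The nodulin gene N-44 lay at 12.63 and 8.89 at 3 h, against 10.34 and 3.78 at 1 h. Of these 14 genes 12 were removed from the test by the limit on replicate spread. With the nodule gene median of each array as a covariate, a fit added after the data were seen, 1114 probe sets were higher and 2237 lower, and 212 of the 258 called probe sets of the genes described below remained called in the same direction.

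**Figure D1:**
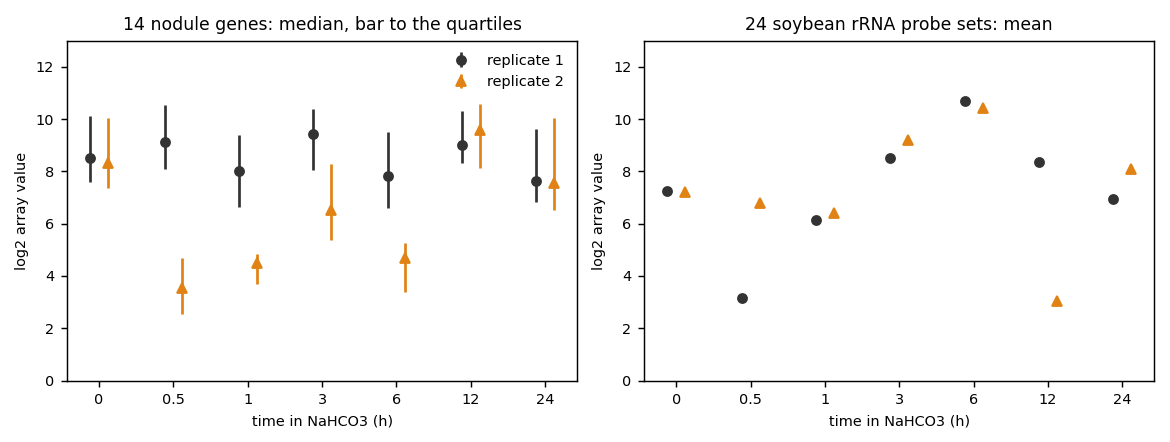
Median log2 value of 14 nodule genes (left, bars to the quartiles) and mean log2 value of 24 soybean ribosomal RNA probe sets (right) on each array, against time in NaHCO3 in hours, with replicate 1 as circles and replicate 2 as triangles. The nodule genes were lower on replicate 2 at 0.5, 1, 3 and 6 h, and the ribosomal RNA probe sets were at 8.50 and 9.21 at 3 h, against 6.13 and 6.42 at 1 h.

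The largest rise from 1 to 3 h among named genes was that of a probe set described as the MYB transcription factor MYB122. Its values were 9.30 and 8.73 at 3 h, against 6.27 and 6.01 at 1 h, a difference of 2.87 (SE 0.23, adjusted p = 0.00948), which is a 7.33-fold rise. Next came a ZIM motif gene, of the family of repressors of jasmonate responses, with 10.03 and 9.44 at 3 h, against 6.89 and 7.13 at 1 h (difference 2.73, SE 0.29, adjusted p = 0.0113). Both genes had been lower at 0.5 h than at 0 h, by 1.64 and 2.54 on the fitted log2 scale, and both of these falls were called. Over the time course the ZIM gene lay at 8.01 and 8.84 at 0 h, 6.28 and 5.49 at 0.5 h, 6.89 and 7.13 at 1 h, 10.03 and 9.44 at 3 h, 7.57 and 7.88 at 6 h, and between 4.59 and 5.04 at 12 and 24 h. The 3 h pools were thus the highest of the 14 for this gene.

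The ZIM gene was among those the study measured by quantitative RT-PCR, and the primers of that assay, which are designed on the transcript behind the probe set, are shown for this gene and for BZIP77, a bZIP factor gene that fell. Sense strand primers come first in each pair, written from the 5′ end, and no primer base is marked.
ZIM motif gene, sense primer: cactgccaataattcggttca
ZIM motif gene, antisense primer: gctgccatgtgattgcttgt
BZIP77, sense primer: actgagggttccagtgatgg
BZIP77, antisense primer: ggatttctcagctccagtgc

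Genes of jasmonate synthesis held 10 called rises and no called fall. Of 24 tested probe sets of lipoxygenases and jasmonate synthesis enzymes, named by symbol, 10 were called higher and 0 lower, where 4.89% and 10.2% of all probe sets were, 12 and 0 at an unadjusted p under 0.05 and 3 and 0 by the methods' t-test with Storey's q. All 24 differences lay above 0, with a median of 0.63, against -0.12 over all probe sets. AOS1, an allene oxide synthase, stood at 8.81 and 8.42 at 3 h, against 6.72 and 6.49 at 1 h (difference 2.01, SE 0.26, adjusted p = 0.0175), and its other tested probe set differed by 1.79. A gene described as 12-oxophytodienoate reductase 3 stood at 8.89 and 8.81 at 3 h, against 7.21 and 7.60 at 1 h (difference 1.45, SE 0.21, adjusted p = 0.0201). The allene oxide cyclase genes AOC3 and AOC4 rose by 0.85 and 0.93, and a second probe set of AOC3 by 0.65, a call lost after quantile normalization. AOS2 rose by 1.03, a call that was lost after quantile normalization. The lipoxygenase genes LOX10 and LOX7 rose by 1.17 and 1.26, each with a wide spread at 1 h (LOX10 at 7.42 and 6.19). That probe set of LOX7 was dim, at 4.47 and 3.39 at 1 h. Of the 4 tested probe sets of LOX7 2 were called, the second at 0.64, while those at 0.59 and 0.56 were not.

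Upstream of these enzymes, the plastid omega-3 desaturase gene FAD7-2, whose enzyme makes linolenic acid, was at 7.67 and 7.51 at 3 h, against 5.49 and 5.12 at 1 h (difference 2.29, SE 0.27, adjusted p = 0.0113). A pair of probe sets described as chloroplast omega-3 desaturases, picked after their values were seen, rose by 1.60 and 1.76. Of the 10 probe sets named by symbol for desaturases and lipid transfer proteins 1 was higher and 0 lower (median 0.01), where 4.89% and 10.2% of all probe sets were. Downstream, a gene described as an S-adenosyl-L-methionine carboxyl methyltransferase, of a family that methylates jasmonic and salicylic acid among other substrates, stood at 6.57 and 5.03 at 3 h, against 4.29 and 2.39 at 1 h. Its difference of 2.46 had a large SE of 0.65 (adjusted p = 0.0762) and did not pass when 3 h replicate 1 or 1 h replicate 2 was left out. The vegetative storage protein gene VSPA, whose transcript jasmonate is known to raise in soybean leaves, was called higher on 1 of its 2 tested probe sets, with 4.57 and 5.32 at 3 h, against 3.86 and 3.48 at 1 h, under background. The other was at 3.70 and 3.77 at 3 h, under background, against 3.81 and 4.53 at 1 h, and was not called.

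The receptor gene COI1 went the other way on part of its probe sets. Of 6 probe sets 3 were called lower and 0 higher, with differences of -1.93, -0.80 and -0.59, while the other 3 differed by -0.34, -0.15 and 0.12. The strongest was at 3.99 and 3.86 at 3 h, close to background, against 5.85 and 5.86 at 1 h (SE 0.36, adjusted p = 0.0355). The call at -0.80 was lost after quantile normalization and that at -0.59 after centring, so 1 probe set of COI1 was lower on all 3 scales. For jasmonate synthesis the count of 10 became 1 when either 3 h array was left out, 4 and 2 when 1 h replicate 1 and replicate 2 were, and 5 with the nodule gene level as a covariate. On the arrays at 6 h and 0.5 h, which the comparison did not use, 16 of the 24 were higher at 6 h and 0 lower, against 11.6% and 12.9% of all probe sets (24.5% in either direction).

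**Figure D2:**
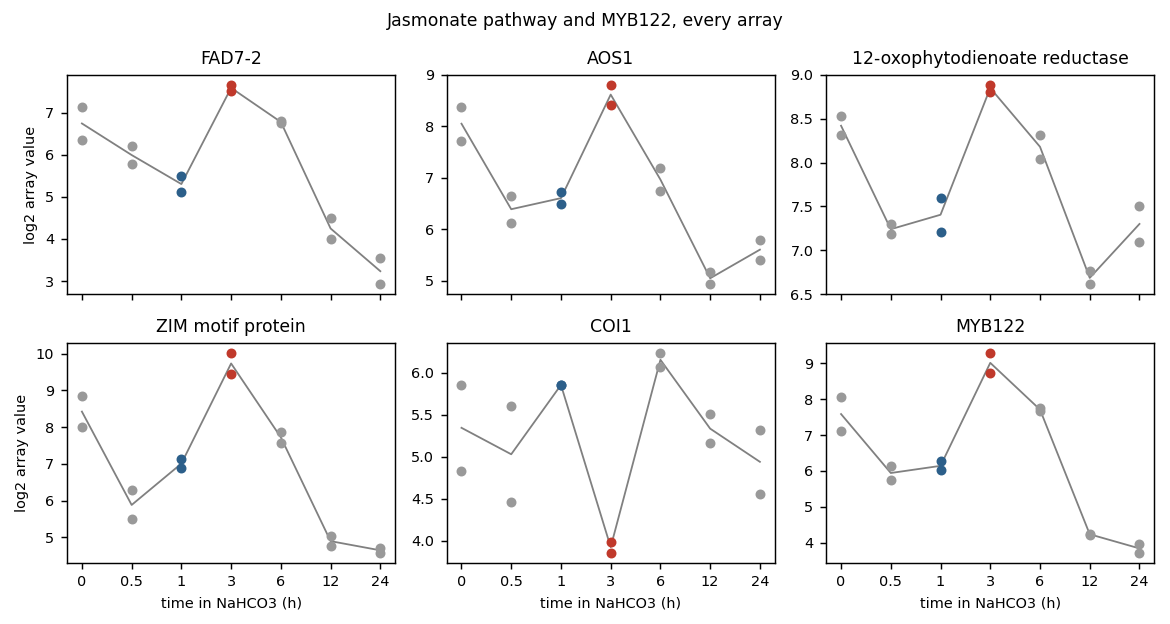
Log2 array values of FAD7-2, AOS1, 12-oxophytodienoate reductase, the ZIM motif gene, COI1 and MYB122 on every array against time in NaHCO3 in hours (points, each array; line, mean of the 2 arrays), with 3 h in red and 1 h in blue. The 5 genes other than COI1 were higher on both 3 h arrays than on both 1 h arrays, and COI1 was lower.

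Flavonoid and isoflavonoid synthesis genes were called in 1 direction too. Of 36 tested probe sets 14 were called higher and 0 lower, against 4.89% and 10.2% of all probe sets, 18 and 0 at an unadjusted p under 0.05 and 9 and 0 by the t-test with Storey's q. All 36 differences lay above 0 (median 0.74). The flavanone 3-hydroxylase gene F3H was at 5.94 and 5.27 at 3 h, against 3.68 and 3.60 at 1 h, which is below background. It was at least 3.17-fold higher (adjusted p = 0.0320), a bound that, here and below, sets the mean of the measured group against the background level of 3.94. Chalcone synthase opens the pathway, and of 5 tested probe sets of CHS1 2 were called higher (1.60 and 1.57), while the others differed by 0.82 to 1.18 without passing. CHS1 on its highest-rising probe set was at 9.96 and 9.78 at 3 h, against 8.67 and 7.86 at 1 h. None of the 5 probe sets of CHS8 passed (0.41 to 1.31).

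At later steps, all 4 probe sets of the chalcone isomerase gene CHI1B1 were called higher, by 0.71 to 1.13, and 3 of 4 of the 2-hydroxyisoflavanone dehydratase gene HIDH, by 0.77 to 1.09. The chalcone reductase gene CHR5 stood at 11.17 and 11.27 at 3 h, against 10.31 and 9.89 at 1 h (difference 1.11). The prenyltransferase gene G4DT, of glyceollin synthesis, was higher by 1.12 on 1 probe set and differed by 1.08 without a call on the other. IFS2, an isoflavone synthase gene, rose by 1.03, a call lost after quantile normalization, and IFS1 differed by 0.53 (adjusted p = 0.230). Outside the list, the isoflavone 7-O-glucosyltransferase gene IF7GT fell by 1.67 and lay at 4.33 and 4.21 at 3 h, against 6.51 and 5.37 at 1 h. The count of 14 became 1 and 3 when 3 h replicate 1 and replicate 2 were left out, 2 and 4 when those of 1 h were, and 11 with the nodule gene level as a covariate. Between 6 h and 0.5 h, 18 of the 36 were higher and 0 lower, where 11.6% and 12.9% of all probe sets were.

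At the entry to the pathway, a gene described as phenylalanine ammonia-lyase PAL1 rose by 1.82 (7.88 and 7.48 at 3 h, against 6.10 and 5.62 at 1 h), and the 4-coumarate:CoA ligase gene 4CL3 by 1.26 (10.07 and 9.83 at 3 h, against 8.80 and 8.58 at 1 h). Of the 9 probe sets named by symbol for entry and lignin steps 2 were higher and 0 lower, where 4.89% and 10.2% of all probe sets were. The 2 were 4CL3 and 4CL4, the second not after quantile normalization. Of 3 probe sets of PAL2.1, outside that list, 1 was called higher (0.64), though not after quantile normalization. A probe set described as a 4-coumarate-CoA ligase family protein fell by 0.82 and kept its call on all 3 scales (5.45 and 5.05 at 3 h, against 6.29 and 5.85 at 1 h). A probe set described as TT7, a flavonoid 3'-hydroxylase, was at 8.50 and 8.30 at 3 h, against 6.98 and 7.15 at 1 h (difference 1.34, SE 0.21, adjusted p = 0.0267). The study's list of quantitative RT-PCR genes names this probe set an elicitor-inducible cytochrome P450, so its place in the flavonoid pathway is uncertain. A pair of laccase genes, of lignin polymerization, rose by 1.44 and 1.13. In the MYB family MYB29, a regulator of isoflavonoid synthesis in soybean, was higher on both probe sets (1.67 and 1.45) with 6.37 and 6.49 at 3 h, against 5.45 and 4.07 at 1 h.

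Of 38 glutathione S-transferase probe sets, whose enzymes conjugate glutathione to reactive compounds, 10 were higher and 2 lower (median 0.35), where 4.89% and 10.2% of all probe sets were. GSTU41 was at 9.05 and 9.86 at 3 h, against 7.20 and 7.27 at 1 h (difference 2.22, SE 0.42, adjusted p = 0.0376), although its other probe sets differed by 0.60 and 0.86 without a call. Leaving out 3 h replicate 1 and replicate 2 brought the glutathione S-transferase count of 10 to 3 and 0, and leaving out those of 1 h to 2 and 7. All 3 tested probe sets of UGT1, a glycosyltransferase, rose by 1.10 to 1.67. Of 49 cytochrome P450 probe sets named by symbol 5 were higher and 1 lower (median 0.01), beside the same shares of all probe sets, 4.89% and 10.2%. By description, an E-class P450 was higher by 2.53 (9.54 and 9.03 at 3 h, against 6.60 and 6.91 at 1 h) and a CYP71B35-like gene by 2.08 (7.78 and 7.73 at 3 h, against 5.74 and 5.62 at 1 h).

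Among enzymes of carbon metabolism, probe sets described as NADP-malic enzyme, which turns malate into pyruvate with release of CO2, rose by 1.85, 1.73 and 1.27. The aldehyde dehydrogenase genes ALDH3J2 and ALDH3H1, which oxidize reactive aldehydes, were higher on all 4 of their probe sets, 3 of them by 0.92 to 1.12. The other, of ALDH3J2, averaged 5.21 at 3 h, against 3.27 at 1 h, under background, and so was at least 2.41-fold higher. All 3 probe sets of AOX3, an alternative oxidase of mitochondria, were called higher (0.57 to 0.87), the lower 2 of them not after quantile normalization. These descriptions come from tables of the study that list probe sets selected on these same arrays, so they are not independent evidence of direction.

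**Figure D3:**
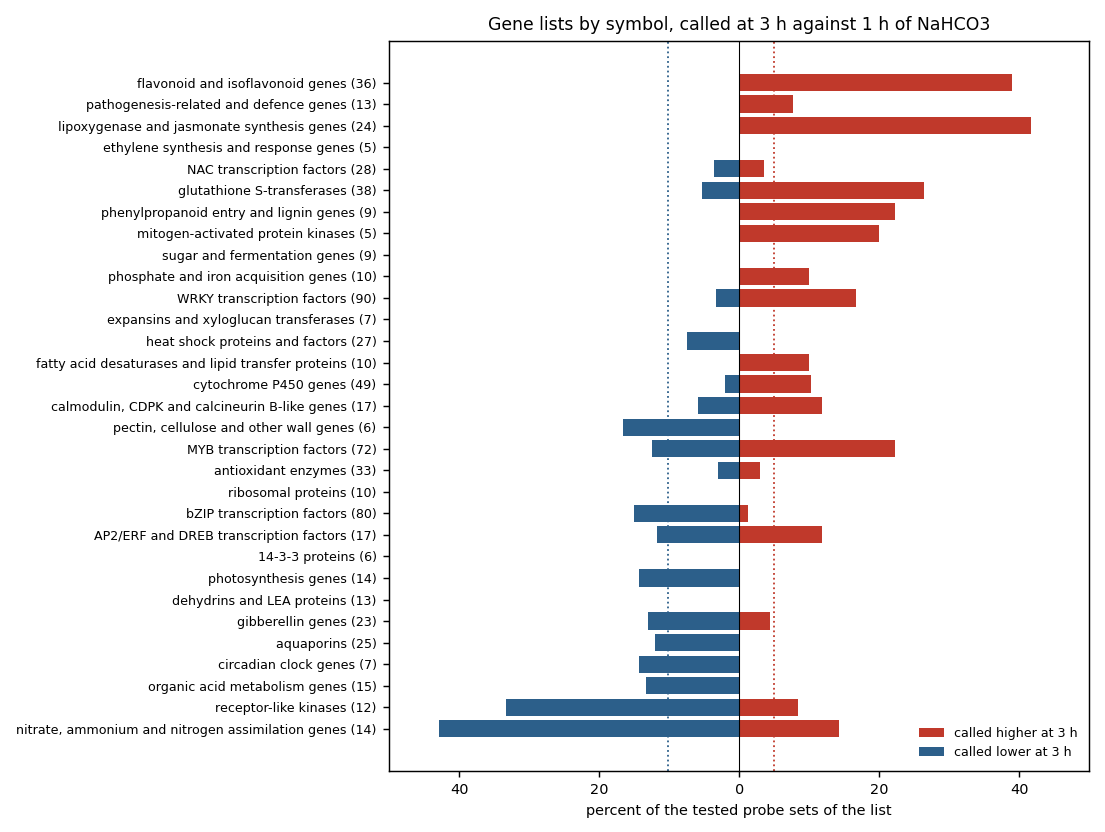
Percent of the tested probe sets of each gene list called higher (red, right) and lower (blue, left) at 3 h than at 1 h of NaHCO3, for lists with at least 5 tested probe sets (number in brackets), ordered by their median difference. Dotted lines mark the shares over all tested probe sets, 4.89% higher and 10.2% lower. Flavonoid genes (14 of 36 higher) and nitrogen assimilation genes (6 of 14 lower) stand at the ends.

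Counts for transcription factor families stand beside the shares of all probe sets, 4.89% called higher and 10.2% lower. Of 72 MYB probe sets named by symbol, which leave out MYB122, 16 were higher and 9 lower, with a median of -0.01. The lower calls were a share near that of all probe sets. Among these 72, MYB184 had the largest positive difference (1.94) without a call (adjusted p = 0.164). MYB124 rose by 1.77, MYB73 by 1.55 and MYB83 by 1.52, and MYB83 lay at 9.28 and 9.48 at 3 h, against 8.06 and 7.66 at 1 h. MYB177 fell to 3.66 and 3.57 at 3 h, under background, against 5.50 and 5.49 at 1 h, and so was at least 2.94-fold lower (adjusted p = 0.0307). MYB149 differed by -1.85 and MYB173 by -1.61. Of 90 WRKY probe sets 15 were higher and 3 lower (median 0.13), and the 3 lower calls were lost under both other scalings. WRKY56, which matches Arabidopsis WRKY40, accounted for 4 of the 15. On its brightest called probe set it was at 9.85 and 9.87 at 3 h, against 8.50 and 8.58 at 1 h (difference 1.32, SE 0.24, adjusted p = 0.0328). The higher count of the MYB family became 2 and 1 when the first or the other 3 h array was left out, and 5 and 7 for the 1 h arrays. That of the WRKY family became 5 and 3 for the 3 h arrays and 4 and 7 for the 1 h arrays.

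Of 80 bZIP probe sets 12 were lower, where 10.2% of all probe sets were, and 1 was higher (BZIP98, 0.68). The lower calls were 7 after quantile normalization and 6 after centring, and 6 on all 3 scales, against 8 in the MYB family. They became 3 when either 3 h array was left out, and 1 and 5 when 1 h replicate 1 and replicate 2 were. Both probe sets of STF2, a relative of the light-signalling factor HY5, were lower. The first lay at 2.92 and 3.86 at 3 h, under background, against 5.32 and 4.90 at 1 h, and so was at least 2.25-fold lower. BZIP36, described like STF2 as a TGACG-motif-binding factor, was at 4.72 and 4.97 at 3 h, against 6.53 and 6.03 at 1 h (difference -1.43, SE 0.23, adjusted p = 0.0267). BZIP77, whose primers are given above, was at 6.78 and 6.75 at 3 h, against 7.70 and 7.55 at 1 h (difference -0.86). A gene described as a bHLH factor fell to 3.58 and 3.33 at 3 h, under background, against 6.07 and 5.68 at 1 h, and so was at least 3.82-fold lower (adjusted p = 0.0113). The zinc finger genes went apart, with SCOF-1, known for cold induction in soybean, higher on all 3 probe sets (0.90 to 0.95) and ZFP1 lower (-1.42).

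Of 28 NAC probe sets 1 was higher and 1 lower, and of 17 of the AP2/ERF and DREB families 2 and 2, where 4.89% and 10.2% of all probe sets were. DREB3 was at 8.52 and 9.28 at 3 h, against 10.18 and 10.08 at 1 h (difference -1.23). In signalling, a gene described as MAP kinase kinase MKK2 was at 7.34 and 7.48 at 3 h, against 5.32 and 5.46 at 1 h (difference 2.02, SE 0.30, adjusted p = 0.0219). MPK4B, a MAP kinase gene, was at 9.34 and 9.34 at 3 h, against 8.43 and 8.60 at 1 h (difference 0.83, SE 0.14, adjusted p = 0.0321), and kept its call without any 1 of the 4 arrays. Of 12 receptor-like kinase probe sets named by symbol 4 were lower, among them RLK3 (-1.11), and 1 was higher, beside the same shares of all probe sets. By description, a cysteine-rich receptor-like kinase, CRK10, rose to 6.89 and 7.22 at 3 h, against 5.36 and 5.46 at 1 h (difference 1.65, SE 0.27, adjusted p = 0.0270). Protein phosphatases of type 2C, which counteract kinases of hormone and stress signalling, went both ways, with probe sets at 1.10, 0.90 and 0.76 and others at -0.58 and -1.11, the last lost after quantile normalization.

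The 2 nitrate reductase genes and nitrite reductase were among the falls. Of 14 tested probe sets of nitrogen transport and assimilation 6 were lower and 2 higher (median -0.68), where 10.2% and 4.89% of all probe sets were, and the same 6 and 2 were called under all 3 scalings. The nitrite reductase gene NIR was the largest fall among named genes, with 6.83 and 6.51 at 3 h, against 9.26 and 9.18 at 1 h (difference -2.55, SE 0.26, adjusted p = 0.0113), a 5.87-fold difference. Its other bright probe set read 7.18 and 7.19 at 3 h, against 9.37 and 9.46 at 1 h (-2.23), and a dim probe set, under background at 3 h, was not called (adjusted p = 0.152). The nitrate reductase genes INR2 and INR1 fell by 1.80 and 1.45, with INR2 at 7.40 and 7.33 at 3 h, against 9.31 and 9.02 at 1 h. The ammonium transporter gene AMT1.3 fell to 6.51 and 6.79 at 3 h, against 8.47 and 8.35 at 1 h (difference -1.76, SE 0.30, adjusted p = 0.0310), and the high-affinity nitrate transporter gene NRT2 differed by -0.94.

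Ferredoxin and plastid NADPH supply electrons to the nitrite reductase step of nitrate assimilation. A gene described as chloroplast ferredoxin I, which its description places on the photosynthesis list, was at 4.35 and 4.96 at 3 h, against 7.20 and 7.08 at 1 h (difference -2.48, SE 0.51, adjusted p = 0.0419). At 12 h this gene lay at 2.69 and 3.75, where NIR lay at 9.72 and 10.29. Its part in nitrite reduction was not tested. A pair of probe sets described as plastid glucose-6-phosphate dehydrogenase, the first enzyme of the oxidative pentose phosphate pathway, differed by -1.29 and -1.21, the first at 7.89 and 7.72 at 3 h, against 9.12 and 9.08 at 1 h. The pair was picked after its values were seen, and ferredoxin as 1 of the 12 largest falls. The 2 rises on the list were the glutamine synthetase gene GS1alpha (1.13) and the transporter gene NRT1-3 (0.80), each on 1 of 2 probe sets. By description, 2 further ammonium transporters rose by 0.91 and 0.77, against the direction of AMT1.3, the first with 7.94 and 7.98 at 3 h, against 7.13 and 6.97 at 1 h.

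The genes of nitrate reduction had not been called lower at 0.5 h. None of the 2 bright probe sets of NIR and those of INR1, INR2 and AMT1.3 was called at 0.5 h against 0 h, with differences of 0.15 to 0.72, while NRT2 was called higher by 0.77. NIR then lay at 6.11 and 6.39 at 6 h and at 9.72 and 10.29 at 12 h. On the arrays at 6 h and 0.5 h, 7 of the 14 were lower and 2 higher at 6 h, where 12.9% and 11.6% of all probe sets were. The count of 6 lower became 4 and 3 when 3 h replicate 1 and replicate 2 were left out, 3 and 6 when those of 1 h were, and 7 with the nodule gene level as a covariate.

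**Figure D4:**
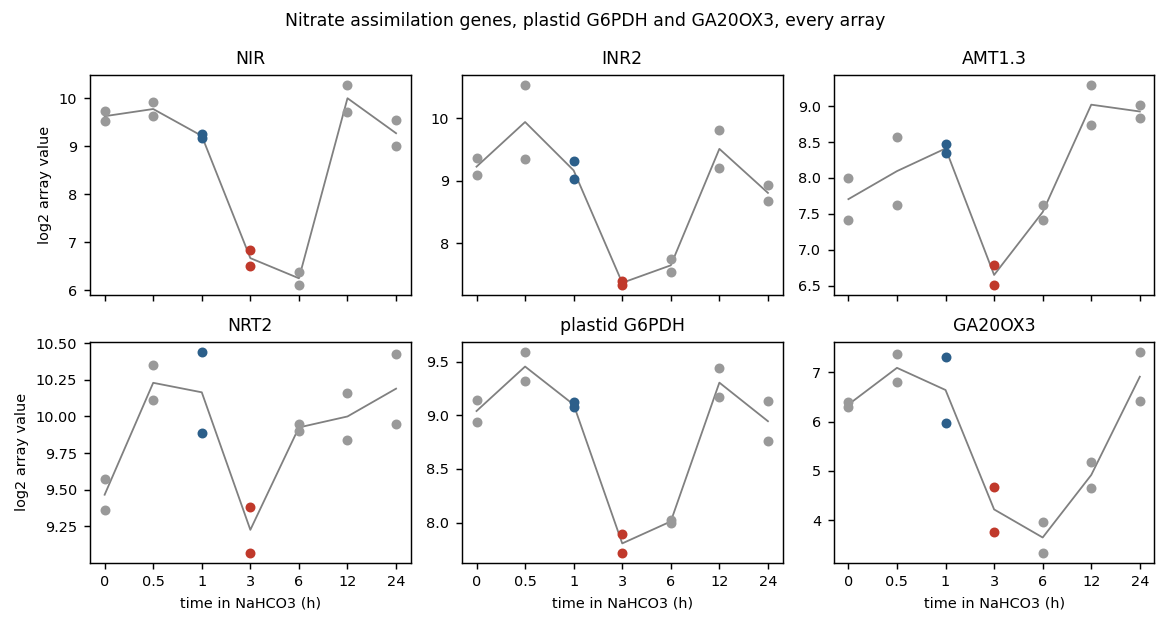
Log2 array values of 4 nitrogen assimilation genes, plastid glucose-6-phosphate dehydrogenase (G6PDH) and the gibberellin synthesis gene GA20OX3 on every array against time in NaHCO3 in hours (points, each array; line, mean of the 2 arrays), with 3 h in red and 1 h in blue. In all 6 panels both 3 h values lie below both 1 h values.

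Of 23 probe sets on the gibberellin list 3 were lower and 1 higher, a share near the 10.2% and 4.89% of all probe sets, and 2 and 0 on all 3 scales. GA20OX3, a gibberellin 20-oxidase of the last steps of gibberellin synthesis, was at 4.68 and 3.75 at 3 h, against 5.97 and 7.31 at 1 h (difference -2.43, SE 0.52, adjusted p = 0.0475), and did not pass when replicate 2 of either time was left out. The gibberellin-regulated gene GASA33 was at 5.37 and 5.45 at 3 h, against 7.21 and 7.28 at 1 h (difference -1.84, SE 0.22, adjusted p = 0.0113). It returned to 6.70 and 7.01 at 6 h. A gene described as a plasma membrane H+-ATPase, the pump that drives uptake by extruding protons, was at 6.74 and 6.51 at 3 h, against 8.26 and 8.03 at 1 h (difference -1.52, SE 0.18, adjusted p = 0.0113). The polygalacturonase gene PG7 differed by -1.96 and was close to or under background on the 3 h arrays. The phosphoenolpyruvate carboxylase kinase genes PPCK1 and PPCK2, whose enzymes phosphorylate phosphoenolpyruvate carboxylase, fell by 1.10 and 0.70. Both had been called higher at 0.5 h than at 0 h, by 1.47 and 1.71. At 3 h PPCK2 was still above its 0 h values (8.24 and 8.27, against 7.36 and 7.39), while PPCK1 was below them (7.25 and 6.90, against 7.49 and 7.45). The study names PPCK2 among the probe sets up-regulated at every time from 3 h on.

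Aquaporins, the water channels, gave 3 lower calls of 25 probe sets (PIP2-4, PIP2-1 and PIP2-6), a share near the background of 10.2%, and 0 of the 3 remained after centring. A further probe set described as a putative aquaporin fell by 1.01 and kept its call on all 3 scales. The auxin-inducible gene AUX28 fell by 0.99, while a gene described as GH3.3, which conjugates auxin to amino acids, rose to 6.01 and 6.00 at 3 h, against 4.54 and 4.55 at 1 h (difference 1.46). Genes named for sieve element occlusion proteins were lower too, where 10.2% of all probe sets were called lower. SEOM, SEOA, SEOF and SEO-F3 fell by 0.95, 0.89, 0.68 and 0.54, the last not after quantile normalization or centring. A second probe set of SEO-F3 differed by -0.39 without a call. Each of the 4 calls was lost when 3 h replicate 1, 3 h replicate 2 or 1 h replicate 1 was left out.

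Of 14 probe sets of photosynthesis genes named by symbol 2 were lower and 0 higher, a share near the 10.2% lower of all probe sets. They were RCA11, a Rubisco activase gene (-1.07), and 1 of 4 probe sets of CAB3, a chlorophyll a/b-binding protein gene (-0.88), whose others differed by -0.48, -0.26 and -0.12 without a call. The ferredoxin I gene given above, on the photosynthesis list by description, differed by -2.48. CHLH, a subunit of magnesium chelatase in chlorophyll synthesis, differed by -1.46 (6.78 and 7.16 at 3 h, against 8.54 and 8.32 at 1 h). The photolyase gene PHR differed by -1.28, and by -0.79 without a call on its other probe set, and COP10 by -0.94. The early light-induced gene ELIP (-1.04) and the phytochrome gene PHYA (-0.62) were lower on the deposited scale and after quantile normalization and lost their calls after centring. Of 7 clock gene probe sets named by symbol 0 were higher and 1 lower (COL10, -0.55, lost after centring), 0 and 2 at an unadjusted p under 0.05, where 10.2% of all probe sets were called lower. LHY differed by 0.08 and 0.21 without a call, and the clock gene GIGANTEA, named by description, rose by 0.86.

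A few probe sets described as plastid-encoded genes were called in the other direction. Probe sets described as photosystem II 44 kDa protein and cytochrome b6/f subunit V, both known as products of the plastid genome, rose by 1.56 and 1.76, the second with 8.82 and 9.21 at 3 h, against 7.46 and 7.05 at 1 h. Probe sets described as ribosomal protein S7 and a Clp protease proteolytic subunit, of families with a plastid-encoded member, rose by 1.62 and 1.85. These 4 were picked after their values were seen. Ribosomal RNA moved with them, and its part in these rises was not tested. Its 24 soybean probe sets averaged 8.50 and 9.21 at 3 h, against 6.13 and 6.42 at 1 h, and on 22 of them both 3 h arrays lay above both 1 h arrays. The single 18S probe set read 10.01 and 10.54 at 3 h, against 7.09 and 7.60 at 1 h. Spiked poly-A transcripts averaged 8.66 and 8.43 at 3 h, against 8.04 and 8.50 at 1 h, and spiked hybridization controls 10.68 and 10.53 at 3 h, against 10.25 and 10.83 at 1 h. Over 23350 probe sets for pathogens of soybean, which read background here, the median difference was 0.13, opposite in sign to the shift of -0.12 over soybean probe sets.

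Cell wall genes split as well. A probe set described as a pectinesterase was at 7.38 and 7.03 at 3 h, against 5.57 and 5.36 at 1 h (difference 1.74, SE 0.25, adjusted p = 0.0201), and an extensin-like gene, of structural wall proteins, at 9.16 and 9.11 at 3 h, against 7.79 and 7.78 at 1 h (1.35). A pair of peroxidase probe sets, whose enzymes can cross-link wall polymers, rose by 1.68 and 1.65. In the other direction, a probe set described as a pectate lyase fell by 0.79, and a sequence described as an endoglucanase-like expansin by 1.20, a call lost on both other scales.

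Several lists showed few or no calls among probe sets named by symbol. The limma fit called 0 of 13 dehydrin and late embryogenesis abundant probe sets, 0 of 6 for 14-3-3 proteins, 0 of 10 ribosomal proteins, 0 of 7 expansins and xyloglucan transferases, 0 of 9 sugar and fermentation genes and 0 of 5 ethylene genes. It called 15.1% of all probe sets, and each list is short beside that share. Having 0 calls therefore does not show that a list was unchanged. Over these 50 probe sets 3 were higher and 4 lower at an unadjusted p under 0.05 in the limma fit, where 2099 and 4405 of all 28440 were. By the methods' t-test with Storey's q 1 and 2 were, and the differences ran from -0.92 to 0.90. Some members of these lists named by description were called, among them 2 alcohol dehydrogenases (0.97 and 1.02), a lactate dehydrogenase (1.11) and the invertase CINV1 (1.18, not after quantile normalization), which were higher, and a ribosomal protein S24 (-0.56, lost on both other scales), which was lower. Heat shock proteins and factors named by symbol gave 0 higher and 2 lower calls of 27, where 4.89% and 10.2% of all probe sets were called. Outside that list a gene described as heat shock factor B3 rose to 8.83 and 8.76 at 3 h, against 7.28 and 7.21 at 1 h (difference 1.56, SE 0.17, adjusted p = 0.0113). Pathogenesis-related genes had all 13 differences above 0 with a median of 0.70, but 1 call, and antioxidant enzymes 1 higher and 1 lower call of 33.

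**Figure D5:**
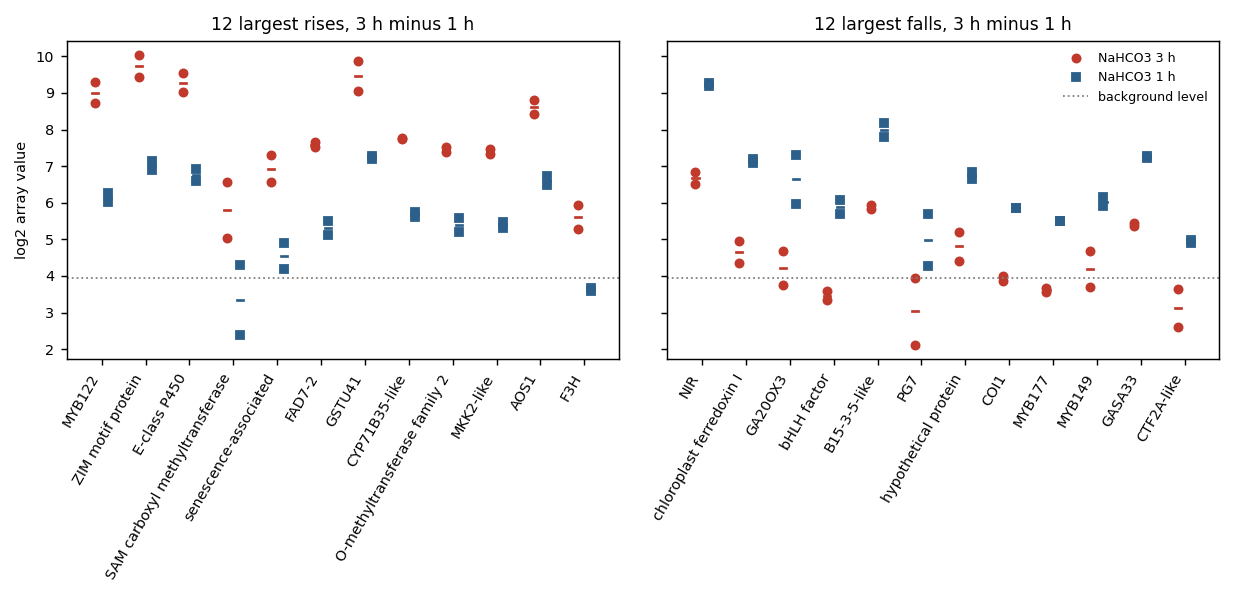
Log2 array values of the 12 largest rises (left) and the 12 largest falls (right) from 1 to 3 h among named genes, with each 3 h array as a red circle, each 1 h array as a blue square, short lines for means and a dotted line at the background level of 3.94. In all 24 genes, chosen for their large called differences, the 2 groups are apart, and several falls end at or under background.

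The study states that its quantitative RT-PCR genes were picked at random from its own findings, so they were not chosen independently of these arrays. Of these 16 genes, 4 were called higher, 2 lower and 10 neither. Over all probe sets 4.89% were called higher and 10.2% lower. The 4 higher genes were the ZIM gene (2.73), the probe set described as TT7 (1.34), an NADP-malic enzyme (1.27) and HAT14, a homeodomain-leucine zipper gene (0.85). HAT14 was at 6.68 and 6.65 at 3 h, against 5.85 and 5.77 at 1 h. BZIP77 (-0.86) and an uncharacterized protein gene (-1.10) were lower. Among the 10 not called, differences ran from -0.52 for WRKY41 to 0.42 for a beta-glucosidase.

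Arrays that the comparison did not use show how far the changes stood elsewhere in the course. Of the 1391 probe sets higher at 3 h than at 1 h, 534 (38.4%) were higher and 99 (7.12%) lower at 6 h than at 0.5 h, where 11.6% and 12.9% of all probe sets were. Of the 2901 lower at 3 h, 771 (26.6%) were lower and 299 (10.3%) higher at 6 h than at 0.5 h. Their median differences between 6 h and 0.5 h were 0.43 and -0.18, against -0.03 over all. The counts of 534 and 771 fell when any 1 of the arrays at 6 h and 0.5 h was left out. The median differences then ran from 0.35 to 0.49 and from -0.23 to -0.13. The 2 comparisons share the estimate of spread in the fit but no array. Ribosomal RNA was high at 6 h as well (10.68 and 10.44, against 3.15 and 6.79 at 0.5 h), and its part in the overlap was not tested.

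At 0.5 h against 0 h these probe sets stood differently. Of the 1391 probe sets higher at 3 h than at 1 h, 77 (5.54%) were higher and 150 (10.8%) lower at 0.5 h than at 0 h, against 2.38% and 3.33% of all probe sets, 5.71% in either direction. Of the 2901 lower, 86 (2.96%) were higher and 118 (4.07%) lower. AOS1, MYB122, the ZIM gene, the E-class P450, the MKK2-like gene and F3H were among those that had been called lower at 0.5 h. The figure of 150 became 32 without 0 h replicate 2 and 67 without 0.5 h replicate 1, and that of 77 became 24 without 0 h replicate 1, 26 without 0 h replicate 2 and 13 without 0.5 h replicate 1.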

How the data were processed

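RNA of root apices was hybridised to the Affymetrix Soybean Genome Array, 1 array per pool. The deposited values are linear intensities per probe set that the authors made with dChip from perfect-match probes. In their scheme 1 array per time was scaled to the median brightness of all arrays and the other fitted to it by an invariant set. From these intensities log2 was taken after raising values under 1 to 1. Of 37593 soybean probe sets, 28601 had a mean log2 value over the 12 stress arrays above background (an intensity of 15.3, the 95th percentile of 23350 pathogen probe sets). A further 161 were removed because the median over the 6 times of the replicate SD over the mean reached 0.5, which left 28440. limma 3.58.1 in R 4.3.3 was fitted to the 12 stress arrays (6 residual degrees of freedom, prior degrees of freedom 3.3). All adjusted p-values are limma's with Benjamini-Hochberg adjustment over all probe sets tested. Symbols came from GEO's annotation of the array (1676 probe sets with 1 symbol that is no locus number), and descriptions from tables of the study (2535 probe sets). Genes named were the 12 largest called rises and falls with a name, up to 4 called members a direction of each gene list, all probe sets of leading genes and the study's quantitative RT-PCR genes. The gene lists and the comparison were chosen with earlier results of these data known. In tests on simulated data of this comparison, 100 probe sets among 28440 were changed by size 1 and 100 by size 2 (log2). Of these 33 and 86 were called, with 22 false calls among the unchanged probe sets. The simulated share of changed probe sets was far below the 15.1% called in the data, so these rates need not hold there. The number of arrays limits the precision (median SE 0.237). The authors' own fold change columns were not used. Alternatives covered scaling, filters, samples, covariates and thresholds.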

Additional observations from a re-analysis of the deposited data

Results flagged for a closer look

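Control probe sets that take no part in the comparison were higher on the 3 h arrays than on both unstressed arrays. The 18S RNA probe set averaged 10.27 at 3 h, the 24 soybean ribosomal RNA probe sets 8.86, the 22 Phytophthora sojae ribosomal RNA probe sets 5.16, and the spiked poly-A transcripts 8.54. On the 0 h arrays they read 8.54 and 8.04, 7.26 and 7.22, 5.03 and 4.27, and 5.96 and 5.94 in the same order. Poly-A RNA is added to the sample before labelling, and its level had already reached 8.04 and 8.50 on the 1 h arrays. The cause was not tested.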

How the results depend on the processing

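The 4292 calls between 3 h and 1 h depended on thresholds, filters and single arrays. Without a level filter there were 2754 calls, without the 2 arrays with dim hybridization controls 6539, at an adjusted p under 0.05 703, and by the methods' t-test after Benjamini-Hochberg adjustment 4 (1 higher, 3 lower). Higher calls were 2331 without the dim arrays and 285 at the stricter threshold. Lower calls were 1720 after quantile normalization, 1571 after centring, 1711 without a level filter and 418 at the stricter threshold. The 155 calls on gene list members were 96 without a level filter, 43 at the stricter threshold and 0 by the t-test. Leaving out 1 array gave 566 to 5611 calls in all, 207 to 1908 higher, 334 to 3703 lower, 33 to 171 on gene list members, 2797 to 5114 between 6 h and 0.5 h and 364 to 1844 between 0.5 h and 0 h. No named gene reversed its direction under any alternative run. Of 258 called named probe sets 223 kept their call after quantile normalization, 230 after centring, 99 at an adjusted p under 0.05 and 78 without 3 h replicate 2.

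Over the tested probe sets, deviations of same-numbered arrays correlated between -0.351 and 0.298 over 15 pairs of times (0.0108 for 1 h and 3 h). The replicate numbers were therefore not used as pairs in the main fit. This check left out 12 of the 14 nodule genes, whose median was lower on replicate 2 at 0.5, 1, 3 and 6 h. It cannot exclude that same-numbered arrays share such a trait. A block for the replicate number gave 3980 calls, and 245 of the 258 named probe sets kept theirs. Dim genes near an intensity of 15.3 and the 2 pools per time limit what could be seen.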

Other observations

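The 3 h arrays held the lowest or highest values of the course for some genes. COI1 on its falling probe set lay at 3.99 and 3.86 at 3 h, against 5.85 and 5.86 at 1 h, and between 4.46 and 6.24 on the arrays of the other 5 times. A gene described as senescence-associated stood at 7.29 and 6.56 at 3 h, against 4.89 and 4.19 at 1 h, and between 3.58 and 5.41 on the arrays of the other 5 times. A MYB83 probe set stood at 9.28 and 9.48 at 3 h, against 8.06 and 7.66 at 1 h, at 7.26 and 7.30 at 6 h, and again at 8.65 and 9.19 at 24 h.

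Probe sets named for 1 protein can disagree. The syringolide-induced gene B15-3-5 differed by 0.96 between 3 h and 1 h, while a probe set described as similar to it differed by -2.11, with 5.94 and 5.82 at 3 h, against 7.79 and 8.18 at 1 h, and lost its call when any 1 of the 4 arrays was left out. The nonsymbiotic hemoglobin described for a further probe set was at 10.60 and 10.85 at 3 h, against 11.51 and 11.57 at 1 h (difference -0.82).

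The poly-A controls and the ribosomal RNA probe sets did not move together over time. The poly-A controls averaged 5.90 and 5.97 at 6 h, when the soybean ribosomal RNA probe sets averaged 10.68 and 10.44.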
